A study of Mus musculus with 3 samples.

Results

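aaTEC1-like cells are epithelial cells of the aged thymus chosen here for claudin 3 or Plet1, together with BC006965, Hpse2 or Otog, and for a lack of markers of cortical and of mature medullary thymic epithelium. They were taken from single-cell RNA libraries as barcodes with at least 3 unique molecular identifiers (UMIs) of Epcam, at least 3 of Cldn3 and Plet1 summed, at least 3 of BC006965, Hpse2 and Otog summed, and 0 of Aire, Psmb11, Cd80, Pecam1 and Pdgfra. This left 154 barcodes of the 2020 with at least 3 Epcam UMIs, out of 14956 barcodes that passed limits on genes and mitochondrial RNA and 17677 that were called as cells. The members were thus selected on measured UMI counts, and the levels of these 11 genes are a description here and were not tested.

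Thymic epithelial cells form the scaffold on which T cells develop. Cortical cells, under the transcription factor Foxn1, attract and select progenitors, and medullary cells display tissue-restricted proteins, partly through Aire, to purge self-reactive T cells. Tight junctions seal the lateral borders of a polarized epithelium with claudins, occludin and scaffold proteins such as Tjp1. The keratins Krt8 and Krt18 are the filament pair of simple epithelium and Krt5 and Krt14 that of basal epithelium.

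The 3 libraries came from untreated C57BL/6 mice aged 20 months, with CD45-positive cells depleted, each prepared from pooled thymi: 1 library of female and 1 of male mice with the Foxn1 lineage trace allele (named Foxn1Lin female and Foxn1Lin male) and 1 of wild type males. In lineage trace mice a Cre recombinase driven by Foxn1 switches on a tdTomato reporter, so that any cell with past or present driver activity stays marked. The wild type library carries no such allele, and its cell type label names PECAM1-positive cells where its title does not. Each group was 1 library, so no test between groups was possible. Values given as 3 numbers follow the order Foxn1Lin female, Foxn1Lin male, wild type throughout, and levels are CPM, a gene's UMIs over all UMIs of the summed barcodes.

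There were 20, 37 and 97 aaTEC1-like barcodes, or 3.99% (95% exact interval 2.46 to 6.10), 8.08% (5.75 to 10.96) and 9.14% (7.48 to 11.04) of the Epcam barcodes of their libraries. The intervals cover counting error only. The share in the Foxn1Lin female library lay below both male libraries, although its interval overlaps that of the Foxn1Lin male library. The members' median depth was 9495.5 UMIs, 17374 UMIs and 21515 UMIs, against 14694, 14765 and 20133.5 in the other Epcam barcodes, so the library with the lowest share also had the shallowest members. With every barcode thinned to 3000 UMIs before the conditions were applied, the shares were 2.72%, 2.50% and 5.81%, and the Foxn1Lin male library then lay with the female one. Mitochondrial transcripts made up a median 2.69%, 5.00% and 5.10% of a member's UMIs and 2.23%, 3.44% and 3.81% in the other Epcam barcodes. No cell barcode sequence was shared among members of different libraries, and 0 of the barcodes outside the called set met the conditions.

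The conditions on Epcam and on BC006965, Hpse2 and Otog were met with a wide margin in most members, and that on Cldn3 and Plet1 with a smaller one. Under a limit of 5 UMIs on both sums 16, 24 and 68 members were left. The median member held 13.5, 50 and 29 Epcam UMIs, 7, 8 and 9 UMIs of Cldn3 and Plet1, and 19, 33 and 57 UMIs of BC006965, Hpse2 and Otog. On the sum of Cldn3 and Plet1, 3, 4 and 14 members sat at the limit of 3 UMIs, and 9, 4 and 19 further barcodes that met all other conditions sat just outside it with 2. On the other sum, 1, 1 and 5 members were at the limit and 2, 1 and 3 barcodes just outside. Cldn3, a sealing claudin, was present in 19, 36 and 93 members and Plet1, a surface protein of placental and glandular epithelium, in 10, 20 and 63. Otog, which encodes otogelin of the acellular membranes of the inner ear, was present in 12, 27 and 67 members. Hpse2, an inhibitor of heparanase, had a UMI in 16, 20 and 65 members, and BC006965 in 15, 30 and 87. All 5 genes occurred together in 3, 6 and 23 members, so single cells usually carried a part of the set.

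Wfdc18, a secreted whey acidic protein family member, is a marker of these cells that the conditions did not use, and it separated them only in part. It had at least 1 UMI in 17 of 20, 16 of 37 and 57 of 97 members, with a median of 55.5, 0 and 3 UMIs. Its summed level was 7653, 2049.8 and 3029 CPM in members and 724, 597 and 982 CPM in the other Epcam barcodes. The 5 members richest in it held 67.0%, 90.3% and 41.1% of the members' Wfdc18 UMIs, so the summed level describes few cells, most of all in the Foxn1Lin male library.

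Members with and without Otog differed in several genes that the conditions did not use. Splitting them by at least 1 Otog UMI gave 12, 27 and 67 members with Otog and 8, 10 and 30 without. The split uses a gene of the conditions and was chosen after the values were seen, so its sides were not tested against each other. Below, each side is only set against the other barcodes as an alternative. The median depths were 9050, 17374 and 26741 UMIs with Otog and 12972.5, 16600.5 and 20241.5 UMIs without, so cells without Otog were not uniformly shallower. Cldn14, a claudin of the organ of Corti and the kidney, stood at 564, 346 and 316 CPM with Otog and 26.3, 15.1 and 52.6 CPM without. Otoa, which encodes otoancorin, another protein of inner-ear gels, stood at 321, 189 and 103 CPM against 87.5, 10.1 and 13.5 CPM. Ush1c, the harmonin scaffold of hair-cell bundles and intestinal brush borders, stood at 312, 302 and 288 CPM against 8.75, 50.5 and 13.5 CPM. All 3 genes were higher with Otog in every library.

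The summed level of the medullary chemokine gene Ccl21a was higher without Otog, at 866, 726 and 519.6 CPM against 8.67, 0 and 7.30 CPM with Otog. In each library 1 member without Otog held most of it, with 89 of the 100, 144 of the 144 and 293 of the 361 Ccl21a UMIs, and 6, 1 and 13 members had any. Wfdc18 was also higher without Otog, at 9871, 4142 and 5599 CPM without Otog and 5455, 1257 and 2197 CPM with it. The basal keratin Krt5 was close in the Foxn1Lin female library and higher without Otog in both male libraries, at 175, 585 and 775 CPM against 165, 97.5 and 176 CPM. Krt18 was higher with Otog in all 3 libraries, at 8699, 6678 and 3752 CPM against 4235, 4314 and 3068 CPM. Its partner Krt8 was higher with Otog in both Foxn1Lin libraries but not in wild type, at 6513, 4605 and 3264 CPM against 3133, 3299 and 3478 CPM. The plot of levels by Otog shows the same genes side by side.

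**Figure D1:**
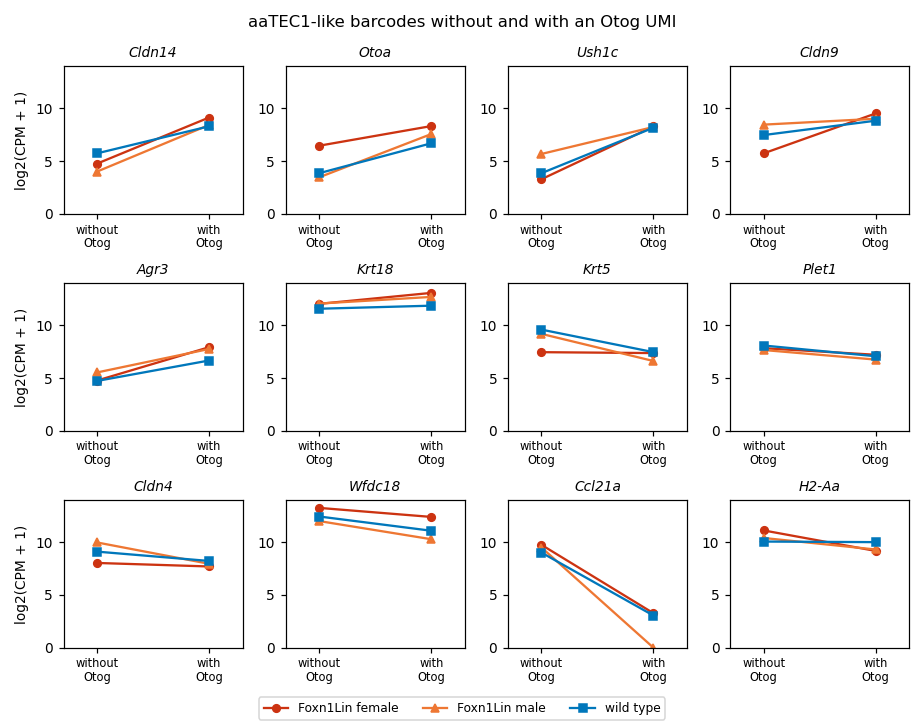
Levels of 12 genes in aaTEC1-like barcodes with at least 1 Otog UMI (12, 27 and 67 barcodes) and without (8, 10 and 30), one point and line per library, as log2(CPM + 1). Cldn14, Otoa and Ush1c lie higher with Otog and Wfdc18 lies higher without it in all 3 libraries, as does Ccl21a, mostly through 1 barcode in each. The split was chosen after the values were seen.

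Otog and Ush1c lie next to each other on chromosome 7 of GRCm38 and are read in opposite directions. Ush1c runs from 46195350 to 46238503 on the minus strand and Otog from 46240987 to 46311434 on the plus strand, with 2483 bases and 0 annotated genes between their starts in GENCODE vM21. Members with Otog held 36, 158 and 592 Ush1c UMIs and those without held 1, 10 and 9. The 300 bases around each start, from RefSeq on GRCm38.p6, are given because both starts face the same short interval. A link between the starts was not tested. The windows run 5′ to 3′ on the strand of the gene and hold neither of the motifs searched for below, so no letter is in capitals.
Ush1c, chr7:46238441-46238740, minus strand: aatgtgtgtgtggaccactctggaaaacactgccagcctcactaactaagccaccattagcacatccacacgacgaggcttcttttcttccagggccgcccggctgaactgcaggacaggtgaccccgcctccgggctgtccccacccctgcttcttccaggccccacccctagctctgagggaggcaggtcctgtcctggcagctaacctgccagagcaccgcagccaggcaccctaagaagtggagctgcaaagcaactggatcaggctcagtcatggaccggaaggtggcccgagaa
Otog, chr7:46240737-46241036, plus strand: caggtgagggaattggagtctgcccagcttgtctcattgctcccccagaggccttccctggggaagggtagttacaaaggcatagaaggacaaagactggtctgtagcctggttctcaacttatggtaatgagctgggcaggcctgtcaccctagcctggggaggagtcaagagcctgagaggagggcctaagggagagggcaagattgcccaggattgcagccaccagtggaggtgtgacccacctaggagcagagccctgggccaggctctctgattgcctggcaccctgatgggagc

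Against all other Epcam barcodes, aaTEC1-like cells were higher in tight junction genes and the simple keratins Krt8 and Krt18 and lower in genes of T cell support, MHC class II and division. With members taken without the zero conditions fewer genes of these 3 lower lists passed. Summed counts were compared with edgeR's quasi-likelihood test with the library as a block, with P values adjusted by Benjamini-Hochberg over all genes tested, so n = 3 libraries and each fold change is a mean over the 3 within-library differences. Of 14822 genes, 1208 (8.15%) were higher and 1575 (10.6%) lower in members, and the median log2 fold change of all genes was -0.08. Without the wild type library 681 were higher and 944 lower, and the closing section gives other settings. Members were also set against the 619 other Epcam barcodes that met the same 5 zero conditions (zero-matched barcodes, 102, 199 and 318), where 633 of 11195 genes were higher (5.65%) and 509 lower (4.55%, 10.2% in either direction). Against 164 zero-matched barcodes with at least 10 Ccl21a UMIs (Ccl21a-high barcodes, 23, 58 and 83), for the chemokine gene that marks the medullary population called mTEC1, 923 of 8785 genes were higher (10.5%) and 720 lower (8.2%). Leaving out wild type took the latter counts to 225 and 178 and to 442 and 340, and leaving out Foxn1Lin male to 393 higher among zero-matched and to 517 and 444 among Ccl21a-high barcodes. The 3 comparisons share the members and are given side by side, not as separate evidence.

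Of the genes tested, the 14 with the highest fold changes that passed the test were Trank1, Cldn14, Otoa, Cldn9, Tmod1, Agr3, Gpx2, Kif19a, Prss33, Grb14, Ephb1, Paqr6, Abcb4 and Fbxo2. In each of them every member library lay above every library of the other Epcam barcodes, as 9.29% of all genes tested did. Cldn14 stood at 296, 255 and 251 CPM in members and 6.49, 14.4 and 35.6 CPM in the other Epcam barcodes (log2 fold change 4.21 ± 0.47 (SE), adjusted P = 0.00143, edgeR). The member libraries were close to each other, while the other barcodes ranged more widely. Cldn9, a claudin of cochlear epithelium, stood at 396, 474 and 389 CPM against 15.1, 41.7 and 69.6 CPM (3.68 ± 0.39, adjusted P = 0.00119). Its levels in members again did not overlap those of the rest. Otoa stood at 205, 140.0 and 80.8 CPM against 13.6, 5.01 and 16.9 CPM (3.73 ± 0.46, adjusted P = 0.00213).

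Fbxo2, a ubiquitin ligase subunit that binds glycoproteins and is abundant in the inner ear, stood at 775, 1489.9 and 886 CPM in members and 59.1, 148 and 191 CPM in the rest (3.24 ± 0.28, adjusted P = 0.000737). Tmod1, which caps actin filaments, stood at 296, 345 and 434 CPM against 19.5, 23.5 and 74.1 CPM. Kif19a, a kinesin of motile cilia, stood at 144, 334 and 351 CPM against 10.7, 22.1 and 67.6 CPM. These genes were well above the rest in every library. Gpx2, the glutathione peroxidase of gut epithelium, stood at 187, 489 and 228 CPM, and Agr3, a protein disulfide isomerase of ciliated and secretory cells, at 135, 169 and 82.3 CPM. Trank1 had the largest fold change (4.38 ± 0.48), but only 4, 9 and 37 members carried it and those 4 female members held all 23 of its UMIs there.

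Detection per cell at equal depth is given for Cldn9, Fbxo2 and Cldn14. They were named for their fold changes in these same barcodes, so it is a description and not further support. After every barcode was thinned to 2000 UMIs, Cldn9 had a UMI in 45.0%, 48.6% and 39.2% of members, 2.29%, 6.43% and 6.85% of the other Epcam barcodes and 0.0700%, 0.142% and 0.210% of Pdgfra-positive, Epcam-negative barcodes, which give the background. Fbxo2 had one in 70.0%, 78.4% and 64.9% of members against 8.73%, 13.1% and 14.7% and a background of 0.630%, 0.142% and 0.210%. Cldn14 had one in 25.0%, 27.0% and 24.7% of members against 1.25%, 1.67% and 4.67%, with 0 in the background of every library.

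**Figure D2:**
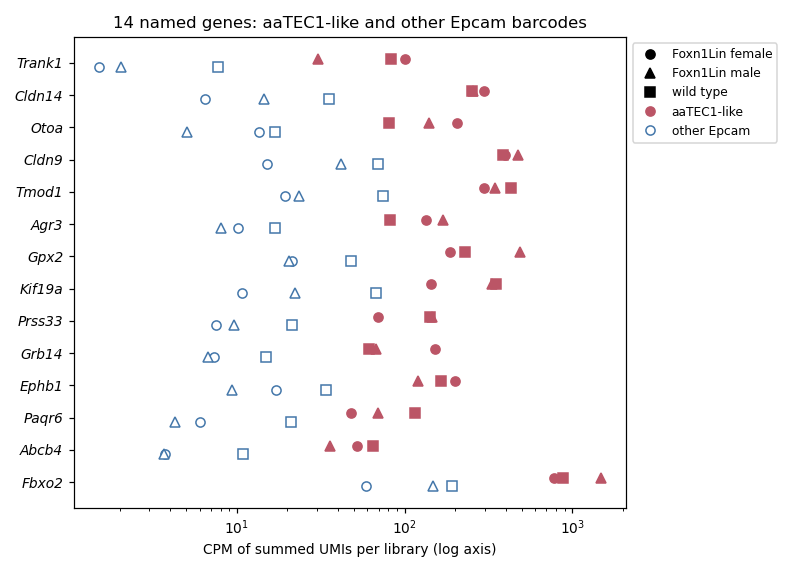
Levels of the 14 highest named genes in the 3 libraries, in CPM on a log axis, for aaTEC1-like barcodes and the other Epcam barcodes, one point per library. The 3 member points (filled) lie above the 3 other points (open) for each gene, Cldn14 for example at 251 to 296 CPM against 6.49 to 35.6 CPM.

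Cldn14, Otoa and Agr3 followed the Otog split. With members without an Otog UMI alone, the fold changes of Cldn14, Otoa, Agr3 and Abcb4 against the other Epcam barcodes no longer passed the test, the first 3 falling to 0.72, 1.10 and 1.41 on the log2 scale. That fit held 8, 10 and 30 members, and over all genes 279 were higher in place of 1208. Fewer barcodes alone can lose a call, and that part was not tested. Cldn9, Tmod1, Gpx2, Kif19a, Prss33, Grb14, Ephb1, Paqr6, Fbxo2 and Trank1 passed against the other Epcam barcodes under each alternative in which they were tested, and Trank1 was not tested after thinning. Against zero-matched barcodes Kif19a, Prss33 and Ephb1 did not pass in members without Otog (adjusted P = 0.27, 0.163 and 0.0631, edgeR). Ush1c was higher over all members, at 161, 233 and 221 CPM against 19.7, 15.9 and 54.9 CPM (3.10 ± 0.35, adjusted P = 0.00151, edgeR), and turned to -0.44 in members without Otog.

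The 5 genes highest in members against zero-matched barcodes were Trank1, Cldn14, Car3, Sox10 and C2cd4b. Sox10, a transcription factor of neural crest and of glandular epithelium, stood at 109, 52.7 and 84.5 CPM in members and 12.0, 2.60 and 10.98 CPM in zero-matched barcodes (3.40 ± 0.30, adjusted P = 0.00405, edgeR). Its levels did not overlap, as held for 9.72% of the genes tested there. C2cd4b, a nuclear protein of endocrine and endothelial cells, stood at 135, 161 and 135 CPM against 17.5, 10.0 and 17.3 CPM. Car3, a carbonic anhydrase, also passed (adjusted P = 0.0469), yet 4, 5 and 20 members carried it and 5 members held 88.5% to 100% of its UMIs in each library. It did not pass without wild type, without the replicate block or in members without Otog (adjusted P = 0.208, 0.114 and 0.188), while its log2 fold change stayed between 2.82 and 4.96 over all alternatives. Cldn14, Trank1, Agr3 and Lrrc26 had 0 UMIs in the Ccl21a-high barcodes of all 3 libraries. Set against a floor of 3 counts over that group, they were at least 218-fold, 55.8-fold, 101-fold and 29.1-fold higher in members.

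Many tight junction genes rose, and 2 fell against Ccl21a-high barcodes, which became 0 without wild type or without Foxn1Lin male. Of 22 such genes tested, 10 were higher than in the other Epcam barcodes and 0 lower, with a median log2 fold change of 1.02 beside -0.08 for all genes. Against zero-matched barcodes 11 of 21 were higher and 0 lower (median 1.33), and against Ccl21a-high barcodes 11 of 17 were higher and 2 lower (median 1.53). The median of all genes in these comparisons was 0 to within 0.01. Cldn4, a claudin of tight secretory epithelium, stood at 235, 459 and 362 CPM in members against 60.2, 198 and 129 CPM (1.70 ± 0.18, adjusted P = 0.00114, edgeR). Every member library exceeded every other, narrowly for the Foxn1Lin male library's other barcodes. Ocln, the gene of occludin, stood at 157, 109 and 152 CPM against 49.7, 60.0 and 53.0 CPM (1.51 ± 0.20). Tjp1, a scaffold, stood at 179, 115 and 153 CPM against 78.5, 73.2 and 83.8 CPM (1.06 ± 0.17). Crb3, a polarity protein of the apical membrane, Marveld3, a relative of occludin, and Cgn, the gene of cingulin, also passed, with log2 fold changes of 1.24, 1.66 and 1.24. Without the wild type library 9 tight junction genes passed in the first comparison, 5 in the zero-matched and 8 in the Ccl21a-high comparison. In members without Otog 7, 5 and 7 passed.

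The RefSeq windows of 300 bases around the gene starts (250 before and 50 after, GRCm38.p6) were searched on both strands for AACCNGTT, the site of grainyhead-like factors, and TGANTCA, the AP-1 site. Of 32851 windows, 2.09% held the first and 7.81% the second. Of 9 genes, Cldn14 and the 8 of the list higher in all 3 comparisons, 6 were matched to 10 windows. The first motif was found in Cgn and the second in Cldn4, 1 window each. Both are given with the motif in capitals, since they are the windows of this set that hold a match, and a match is only a description of the letters.
Cgn, chr3:94786433-94786732, minus strand: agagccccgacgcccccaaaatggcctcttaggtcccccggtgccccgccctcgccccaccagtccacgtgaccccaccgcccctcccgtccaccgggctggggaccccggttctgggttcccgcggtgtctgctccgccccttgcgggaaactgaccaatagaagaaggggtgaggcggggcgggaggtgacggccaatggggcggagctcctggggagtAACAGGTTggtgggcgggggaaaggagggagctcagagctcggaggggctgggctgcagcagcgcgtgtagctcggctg
Cldn4, chr5:134946885-134947184, minus strand: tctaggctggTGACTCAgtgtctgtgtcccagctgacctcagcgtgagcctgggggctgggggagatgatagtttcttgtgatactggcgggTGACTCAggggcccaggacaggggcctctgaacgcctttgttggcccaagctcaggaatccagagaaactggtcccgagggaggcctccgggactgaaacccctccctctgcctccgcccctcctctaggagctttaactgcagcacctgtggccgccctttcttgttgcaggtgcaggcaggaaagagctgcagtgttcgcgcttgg
In Cgn the match reads AACAGGTT, the other strand of the motif, and Cldn4 holds 2 matches.

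Adherens and desmosomal genes were also higher. In the first comparison 8 of 12 were higher and 0 lower (median 0.82), against 3 of 12 and 0 (0.52) in the zero-matched and 4 of 12 and 0 in the Ccl21a-high comparison. Pkp2, a desmosomal plaque protein, stood at 122, 97.0 and 135 CPM against 20.8, 21.5 and 24.5 CPM (2.56 ± 0.19, adjusted P = 0.000515, edgeR). Cdh1, the gene of E-cadherin, stood at 893, 1213 and 1401 CPM against 461, 613 and 639 CPM (1.20 ± 0.12), and its log2 fold change of 0.59 against zero-matched barcodes did not pass (adjusted P = 0.0573). In members without Otog 1 gene of the list passed in each comparison, and without wild type 1 passed in each of the zero-matched and Ccl21a-high comparisons, the latter falling to 2 without Foxn1Lin male.

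Of 12 keratins tested, 2 were higher and 2 lower in the first comparison (median -0.14). Against zero-matched barcodes 2 of 11 were higher and 4 lower (median -0.38), and against Ccl21a-high barcodes 2 of 9 and 4 (median -1.07). The 2 higher ones were Krt8 and Krt18. Krt8 stood at 4831, 4246 and 3317 CPM in members and 1799, 1666 and 1348 CPM in the other Epcam barcodes (1.53 ± 0.10, adjusted P = 0.000423, edgeR). Its partner Krt18 stood at 6477, 6029 and 3584 CPM against 2626, 1737 and 1322 CPM (1.68 ± 0.12, adjusted P = 0.000515). Both were higher in all 3 comparisons, with 1.71 and 1.71 against zero-matched and 1.86 and 1.91 against Ccl21a-high barcodes, and no library of members overlapped the rest. Krt18 was present in all 154 members. Krt17, a keratin of basal and stressed epithelium, stood at 135, 292 and 177 CPM against 1079.8, 1106 and 598 CPM (-1.99 ± 0.24). Krt5 and Krt14 did not pass in the first comparison (-0.35 and -2.06, adjusted P = 0.186 and 0.0669) and were lower against zero-matched (-1.14 and -2.84) and Ccl21a-high barcodes (-2.39 and -4.29). Against zero-matched barcodes neither passed in members without Otog (-0.28 and -2.02) or without the replicate block, and against Ccl21a-high barcodes Krt5 did not in members without Otog (-1.49). The change of Krt17 did not pass in members without Otog (-0.86).

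**Figure D3:**
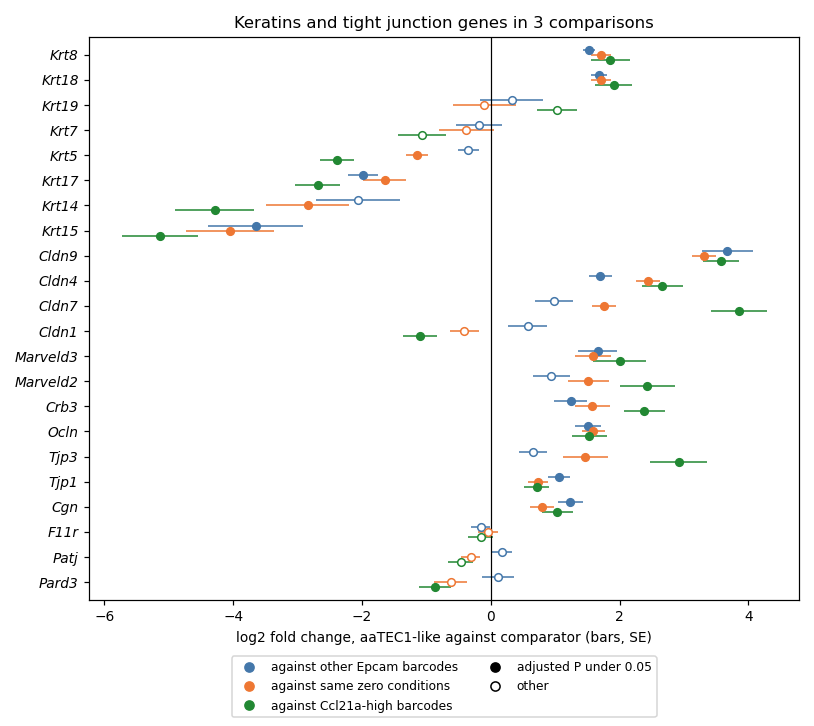
Log2 fold changes of keratin and tight junction genes in aaTEC1-like barcodes against other Epcam, zero-matched and Ccl21a-high barcodes, with SE bars, filled where the adjusted P was under 0.05. Krt8 and Krt18 lie between 1.53 and 1.91 in all 3 comparisons, Krt14 and Krt15 lie below -2, and Cldn9 has the highest fold change of the 4 claudins plotted against other Epcam barcodes, at 3.68.

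Among epithelial transcription factors, 6 of 13 tested were higher and 1 lower in the first comparison (median 0.91), 6 of 11 and 1 against zero-matched and 6 of 9 and 1 against Ccl21a-high barcodes. Ehf, an ETS factor of secretory epithelium, stood at 479, 289.7 and 364 CPM against 133, 96.2 and 154 CPM (1.72 ± 0.16, adjusted P = 0.000824, edgeR). Klf5, a Krüppel-like factor of proliferative gut and bladder epithelium, stood at 152, 241 and 181 CPM against 55.4, 64.8 and 71.3 CPM, and Grhl1, a grainyhead-like factor, at 69.7, 88.7 and 99.9 CPM against 24.9, 22.6 and 32.6 CPM. These factors were higher in all 3 libraries. The one that fell was Trp63, the factor of basal epithelium, at 8.71, 15.2 and 52.5 CPM against 102, 159 and 173 CPM (-2.28 ± 0.35, adjusted P = 0.00494). Without wild type 0 of the factors passed as higher against zero-matched barcodes, while Trp63 still passed as lower.

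Genes of thymic epithelial function were lower than in the full set of other Epcam barcodes. Of 12 genes of Foxn1 and thymopoiesis, 0 were higher and 8 lower (median -1.98), against 0 and 4 of 10 in both other comparisons. Foxn1 stood at 17.4, 12.5 and 21.3 CPM in members and 89.6, 58.4 and 78.9 CPM in the rest (-1.89 ± 0.23, adjusted P = 0.0019, edgeR). It was present in all 3 member libraries. Against zero-matched barcodes at 28.5, 33.9 and 22.9 CPM its change was -0.54 and did not pass (adjusted P = 0.383). Ccl25, a chemokine that draws progenitors into the cortex, stood at 30.5, 19.4 and 24.2 CPM against 1148, 171 and 641 CPM (-4.23 ± 0.35), and Prss16, a protease of cortical cells, at 13.1, 23.6 and 22.0 CPM against 1126, 121 and 544 CPM (-4.09 ± 0.55). The zero condition on Psmb11 removed cortical barcodes from the members and not from the rest of this comparison, and 4 genes of the list were lower with members taken without the zero conditions. Cxcl12 and Kitl, a chemokine and a growth factor for progenitors, passed as lower in the first (-1.78 and -0.98) and the zero-matched comparison (-1.45 and -1.18). Il7, which encodes interleukin 7, was at 69.7, 90.1 and 104 CPM in members and 64.7, 78.8 and 96.2 CPM in the rest (adjusted P = 0.238). Against zero-matched barcodes 0 genes of the list passed without wild type and 3 without Foxn1Lin male, and 1 passed without either the wild type or the Foxn1Lin male library against Ccl21a-high barcodes.

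MHC class II genes were lower in that comparison too. Against all other Epcam barcodes 10 of 11 were lower and 0 higher (median -1.29), against zero-matched barcodes 1 of 11 and 0, and against Ccl21a-high barcodes 3 of 10 and 0. Cd74, the invariant chain, stood at 2622, 2186 and 2741 CPM in members, 5236, 9763 and 6398 CPM in the other Epcam barcodes (-1.29 ± 0.21, adjusted P = 0.00651, edgeR) and 2544, 6623 and 3711 CPM in zero-matched barcodes (-0.59, adjusted P = 0.27). Members still held class II transcripts at a level above that of fibroblast barcodes, at 7122, 4440.5 and 5537 CPM over the whole list against 427, 457 and 719 CPM. In the members alone the class II gene H2-Aa was lower with Otog (581, 638 and 1036 CPM) than without (2240.2, 1362 and 1077 CPM) in all 3 libraries. Without wild type 0 class II genes passed as lower against zero-matched and 1 against Ccl21a-high barcodes, and without Foxn1Lin female 2 and 6 did. Class I genes passed in 2 of 11 cases, both lower. Of 9 genes of medullary maturation 7 were lower (median -2.75), and 1 of 6 against zero-matched barcodes, which became 0 without Foxn1Lin female or without wild type. The zero conditions on Aire and Cd80 removed mature medullary barcodes from the members and not from the rest of the first comparison. With members taken without the zero conditions 1 class II gene and 1 maturation gene were lower there, and in members without Otog 5 and 3.

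Cell division genes were lower in members than in the full set of other Epcam barcodes, and fewer could be tested in the other comparisons. Of 14 tested, 10 were lower and 1 higher (median -2.02), and the one higher was Ccnd1, the gene of the G1 cyclin D1, at 348, 205 and 251 CPM against 70.0, 81.6 and 123 CPM (1.70 ± 0.25, adjusted P = 0.00419, edgeR). Cdk1, the mitotic kinase, had 0 UMIs in members and 15.4, 28.4 and 31.7 CPM in the rest, at least 36.8-fold lower against 3 counts over the group. Of 14 genes linked to senescence 6 were lower and 0 higher, among them Cdkn1a (-1.30) and Cdkn2a (-1.67), both inhibitors of cell-cycle kinases. Against zero-matched barcodes 2 of 11 were lower, and the changes of Cdkn1a and Cdkn2a there, -0.66 and 0.44, did not pass. Against zero-matched barcodes 2 of 6 division genes were lower and 1 higher, and against Ccl21a-high barcodes 1 of 3 each way. In the first comparison 6 were lower without wild type, 4 after thinning and 2 with members taken without the zero conditions. Against zero-matched barcodes 4 were lower without Foxn1Lin male and 1 without wild type. On the senescence list 1 gene was lower in the first comparison with members taken without the zero conditions, neither Cdkn1a nor Cdkn2a, and 3 were lower in members without Otog and 4 without wild type. Against zero-matched barcodes 4 were lower without Foxn1Lin female, 1 without Foxn1Lin male and 0 without wild type.

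The 14 genes lowest in members that passed were Calca, Grp, Mt4, Pclaf, Cr2, Cdk1, Pcp4l1, Cenpf, Gal, Ctrb1, Pgc, Ly6h, Gatm and Ppy, all with 0 UMIs in the 154 members. Against the floor of 3 counts over the members, the peptide hormone genes Calca, Grp and Gal were at least 66.1-fold, 63.3-fold and 29.2-fold lower than in the other Epcam barcodes. The pancreatic and gastric genes Ctrb1, Pgc and Ppy were at least 26.4-fold, 24.0-fold and 20.5-fold lower. Such genes are tissue-restricted antigens, and several are known to depend on Aire, a gene whose absence was a condition of membership. With members taken without the zero conditions, Grp, Cr2 and Cdk1 still passed and the other 11 did not (adjusted P = 0.0637 to 0.684, edgeR), and Mt4 and Pclaf also did not pass by DESeq2. Grp was also absent against zero-matched and Ccl21a-high barcodes, at least 58.8-fold and 102-fold lower. Nell1, Kl and Tmeff2 had 0 UMIs in members and were at least 24.2-fold, 19.9-fold and 15.0-fold lower than in zero-matched barcodes. In members without Otog Nell1 and Kl did not pass (adjusted P = 0.0581 and 0.0830, edgeR), nor did Kl without wild type or Tmeff2 without the replicate block (0.0501). Pth, the parathyroid hormone gene, stood at 78.4, 1.39 and 5.51 CPM in members and 1789, 6453 and 8237 CPM in zero-matched barcodes.

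The summed levels of genes of other cell types differed between the sides. Over 4 parathyroid genes the summed level was 95.8, 119 and 33.1 CPM in members, 2180.0, 3981 and 2051 CPM in the other Epcam barcodes and 2673, 8076 and 9736 CPM in zero-matched barcodes. Gcm2, which defines parathyroid cells, was at 0 in members. Over 10 T-lineage genes it was 26.1, 4.16 and 4.41 CPM in members and 247, 38.8 and 122 CPM in the rest, and over 6 B-lineage and plasma cell genes 139, 18.0 and 29.0 CPM and 6709, 3145 and 2588 CPM. Zero-matched barcodes stood at 38.7, 35.0 and 13.5 CPM over the T-lineage and 26520, 9644 and 6937 CPM over the B-lineage genes. Rag1 and Ms4a1 were at 0 in members. Barcodes outside the called set, which hold free RNA, stood at 4472, 396 and 389 CPM over the parathyroid genes. They stood at 754, 376 and 158 CPM over the T-lineage and 2111, 1055 and 1692 CPM over the B-lineage genes. In the other Epcam barcodes the T-lineage level lay below that of free RNA and the B-lineage level above it in every library. Over 6 mesothelial genes the level was 549, 291 and 95.9 CPM in members, 199, 97.4 and 129 CPM in the rest and 203, 88.9 and 58.2 CPM in zero-matched barcodes, so members were above zero-matched barcodes in all 3 libraries. Mesothelium also carries Krt8 and Krt18. Msln, which other epithelia express too, gave 123, 210 and 243 of these UMIs in members, while Upk3b had 2, 0 and 0, Wt1 had 1, 0 and 0 and Lrrn4 was at 0. Over 5 mural cell genes the level was 253, 128 and 355 CPM in members, 220.2, 234 and 351 CPM in the rest and 165, 164 and 205 CPM in zero-matched barcodes. In members with Otog alone Msln was lower than in the rest (-1.02). The part of these lists in the keratin levels was not tested. Barcodes with at least 3 UMIs over the parathyroid or the T-lineage genes were then left out of both sides (2, 1 and 5 members). This alternative was chosen after seeing the data and kept barcodes with B-lineage genes. It gave 1122 genes higher and 1582 lower in the first comparison, with 11 tight junction genes higher and 0 lower.

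Genes of mesenchymal cells and of epithelial-to-mesenchymal transition were mostly lower. Of 13 tested, 1 was higher and 7 lower (median -1.24), against 0 and 8 of 12 in the zero-matched and 0 and 8 of 12 in the Ccl21a-high comparison (medians -1.43 and -1.93). Fn1, the gene of fibronectin, had 0, 1 and 9 UMIs in members, or 0, 1.39 and 3.31 CPM, against 81.3, 64.2 and 70.6 CPM (-4.61 ± 0.38, adjusted P = 0.000692, edgeR). Vim, the gene of vimentin, stood at 13.1, 43.0 and 2.94 CPM against 199, 168 and 110.1 CPM (-3.24 ± 0.54), a change that did not pass against zero-matched barcodes (-1.26, adjusted P = 0.226). Tpm2, a tropomyosin, stood at 34.8, 11.1 and 5.51 CPM against 100.1, 219 and 68.5 CPM, and Snai2, a repressor of E-cadherin, at 0, 12.5 and 3.67 CPM against 23.9, 37.4 and 22.2 CPM. Tpm2, Snai2 and Cdh2, the gene of N-cadherin, were lower in all 3 comparisons. Against zero-matched barcodes 5 genes of the list were lower without wild type.

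Dusp6, Id1, Id2 and Id3, targets of FGF and BMP signalling, were higher in all 3 comparisons, out of 11, 9 and 8 tested. Against Ccl21a-high barcodes Etv5 was also higher and Smad6, an inhibitor of BMP signalling, lower (2.24 and -1.36), neither of which passed without Foxn1Lin male. Without wild type 3 targets passed as higher in each of the zero-matched and Ccl21a-high comparisons, and without the replicate block 2 in the zero-matched one. Dusp6, a phosphatase induced by ERK, stood at 183, 195 and 144 CPM against 26.2, 32.2 and 42.3 CPM in the other Epcam barcodes (2.52 ± 0.23, adjusted P = 0.000799, edgeR). Id1, an inhibitor of helix-loop-helix factors induced by BMP, stood at 322, 661 and 592 CPM against 78.3, 124 and 151 CPM (2.31 ± 0.15). Id2 and Id3 had log2 fold changes of 1.92 and 1.45. The member libraries lay above the rest in each. Other targets of FGF did not pass in the first comparison, Spry2 at 13.1, 29.1 and 41.1 CPM against 22.6, 44.3 and 52.9 CPM (adjusted P = 0.376), Etv5 at 13.1, 12.5 and 15.1 CPM against 11.7, 5.37 and 9.16 CPM, and Etv4 at 0 UMIs in members. Of 14 receptors 4 were higher and 2 lower, with Erbb3, a neuregulin receptor, at 139, 103 and 129 CPM against 20.4, 23.3 and 36.9 CPM (2.36 ± 0.22). Fgfr2, the receptor for keratinocyte growth factor, was lower in all 3 comparisons (-0.66, -1.26 and -1.56), although the first no longer passed without Foxn1Lin male or without wild type (-0.68 and -0.69), when 0 receptors were called lower. Against zero-matched barcodes 2 of 12 receptors were higher and 3 lower (median -0.14), and against Ccl21a-high barcodes 2 of 12 and 4 (median -0.26). Without wild type these counts were 1 and 1, then 2 and 2, and without Foxn1Lin male 1 and 2, then 2 and 2. The ligand gene Bmp6, chosen after its values were seen, stood at 314, 247 and 339.8 CPM against 40.8, 38.7 and 69.9 CPM (2.79 ± 0.18, adjusted P = 0.000425).

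Of 16 genes of heparan sulfate, the sugar chains on which heparanase and Hpse2 act, 5 were higher and 4 lower. Gpc6, a proteoglycan of the cell surface, stood at 592, 626 and 781 CPM against 83.6, 63.1 and 197 CPM (2.87 ± 0.25, adjusted P = 0.000737, edgeR). Against zero-matched barcodes, whose libraries ranged widely at 272, 32.0 and 369.6 CPM, it did not pass (adjusted P = 0.0773). Without wild type 1 gene of the list was called lower in place of 4. Sulf2, an extracellular sulfatase, and Hs3st1, a sulfotransferase, were higher in all 3 comparisons (1.69 and 1.86 in the first), though Hs3st1 did not pass against zero-matched barcodes without wild type or in members without Otog. Of 6 inner-ear matrix genes tested Otoa was the one that passed. Otogl, the paralog of Otog, had 0, 0 and 3 UMIs in members, and Tecta, which encodes tectorin alpha, 1, 0 and 0.

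Pharyngeal pouch factors, the transcription factors of the endoderm from which the thymus forms, were higher in 7 of 12 cases and lower in 0 (median 0.69), against 2 of 10 with zero-matched and 1 of 9 with Ccl21a-high barcodes. Isl1, a LIM homeobox factor, stood at 266, 266 and 339 CPM against 74.5, 134 and 142 CPM (1.51 ± 0.19, adjusted P = 0.00231, edgeR). Pax9 passed with 0.81, while Pax1 stood at 109, 164 and 219 CPM against 224, 151 and 195 CPM (adjusted P = 0.993). Without wild type 2 of these factors passed as higher in the first comparison, without Foxn1Lin male 4, and in members without Otog 0. Other settings gave 4 by DESeq2, without the filter on low counts and after thinning, 3 with members taken without the zero conditions and 2 without the replicate block. Against zero-matched barcodes 0, 1 and 0 passed when the libraries were left out in the same order, and against Ccl21a-high barcodes 2 without Foxn1Lin female and 0 without wild type. Immediate early and heat-shock genes, which tissue digestion is known to induce, were higher in 12 of 14 cases (median 1.13), against 5 and 4 of 14 in the other comparisons (the 5 becoming 10 without Foxn1Lin male and 2 without wild type). Fos stood at 4565, 3409 and 3109 CPM against 1351, 2097 and 1426 CPM (1.36 ± 0.19), and its changes in the other comparisons, 0.66 and 0.51, did not pass. Nr4a1, an orphan nuclear receptor, was higher in all 3 (2.26, 1.85 and 3.41). Their part in the other differences was not tested.

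**Figure D4:**
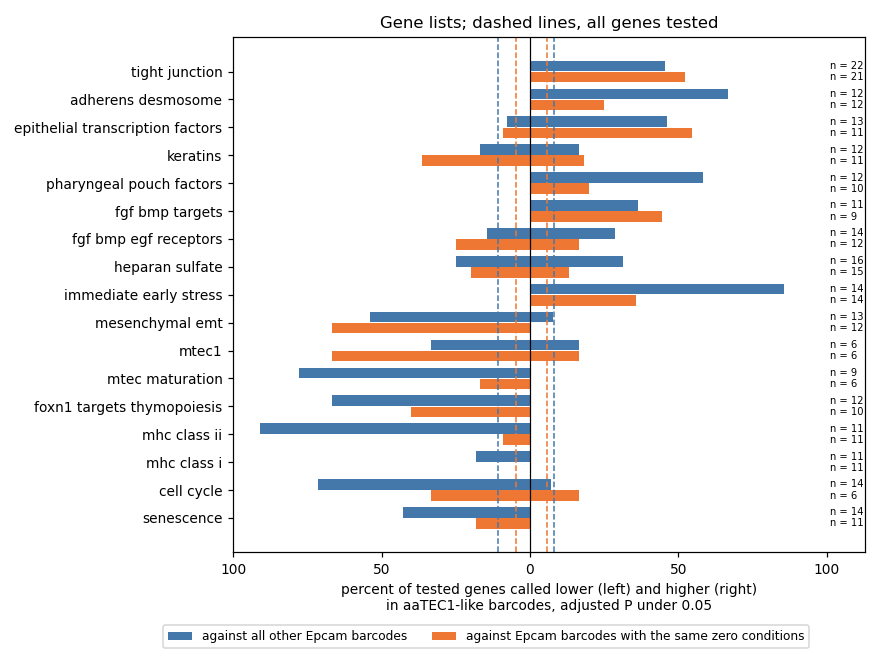
Percent of each list's tested genes that passed edgeR's test (adjusted P under 0.05) as lower (left) or higher (right) in aaTEC1-like barcodes, against all other Epcam barcodes and against zero-matched barcodes, with the number tested at the right and dashed lines for all genes tested. Tight junction genes were higher in 10 of 22 and 11 of 21 cases, and MHC class II genes lower in 10 of 11 and 1 of 11.

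Against Ccl21a-high barcodes the genes lowest in members were Grp, Sprr2a3, Ccl11, Adam19 and Krt15. Ccl11, the gene of eotaxin, stood at 17.4, 23.6 and 6.98 CPM in members and 1018, 321 and 1175 CPM in Ccl21a-high barcodes (-5.70 ± 0.63, adjusted P = 0.000587, edgeR). Adam19, a membrane protease, stood at 0, 1.39 and 1.47 CPM against 45.6, 63.1 and 90.4 CPM (-5.67 ± 0.43). Both were far below in every library. Krt15, a keratin of basal stem cells, had 0, 0 and 3 UMIs in members and stood at 141, 29.4 and 25.0 CPM in Ccl21a-high barcodes. Ccl21a itself, which defined that group, stood at 436, 199.6 and 133 CPM in members against 979, 1463 and 689.6 CPM in all other Epcam barcodes (-1.99 ± 0.30, adjusted P = 0.0046). In members that level came mostly from the 1 barcode per library described with the Otog split, and the change did not pass in members without Otog or under limits of 5 UMIs.

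Mimetic epithelium comprises thymic cells that copy peripheral cell types, and its gene lists were small. Of 6 tuft cell genes 0 passed in either direction in the first comparison, with 0 of 6 below an unadjusted P of 0.05 by edgeR and 0 called by DESeq2. Barcodes with at least 3 UMIs over these genes made up 40.0%, 40.5% and 40.2% of members and 19.1%, 22.8% and 31.7% of the other Epcam barcodes. After thinning to 2000 UMIs, at least 1 such UMI was found in 45.0%, 29.7% and 18.6% of members and 13.3%, 15.2% and 21.5% of the rest, so the order turned in wild type, and all lay below the 50.3%, 54.4% and 64.9% of fibroblast barcodes. Of 5 microfold genes 1 was higher, Tnfaip2, which is also expressed in myeloid and endothelial cells, at 301, 689 and 406 CPM against 118, 109.9 and 126 CPM (2.08 ± 0.25), and it also passed against zero-matched barcodes (2.38), though not without wild type. It passed in neither comparison in members without Otog. At least 3 UMIs over the microfold genes were found in 45.0%, 67.6% and 76.3% of members and 36.8%, 29.9% and 47.5% of the rest, and at least 1 after thinning in 35.0%, 51.4% and 48.5% against 26.8%, 19.5% and 29.4%, with 44.3%, 46.7% and 36.3% in fibroblast barcodes. Of 6 cornified genes Sbsn was higher (1.44), of 5 neuroendocrine genes Car8 was higher and Insm1 lower (2.00 and -2.84), of 4 goblet genes Fcgbp was lower (-2.72), of 3 ciliated genes Foxj1 was lower (-3.78), and 0 of 3 ionocyte genes passed. With members taken without the zero conditions none of these 5 calls held, and without wild type those of Sbsn and Foxj1 did not, nor that of Foxj1 without Foxn1Lin male. Car8 also did not pass without doublets or with limits of 5 UMIs, and it was lower in members with Otog alone (-2.85). Single barcodes carried some of these programmes. In the wild type library 1 member held all 155 UMIs of Flg, all 100 of Ivl and all 381 of Klk7, genes of cornified skin. These genes were chosen after their values were seen.

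Reporter UMIs were found in nearly all members of both lineage trace libraries. They were counted over all 8 transgene sequences added to the genome, with that of tdTomato among them. After thinning to 2000 UMIs, 18 of 20 (90.0%, exact interval 68.3 to 98.8) and 36 of 37 (97.3%, 85.8 to 99.9) had at least 1 reporter UMI. In the other Epcam barcodes 63.8% and 73.8% had one, and in zero-matched barcodes 69.6% and 86.9%. Fibroblast barcodes, which should lack it, gave a background of 4.90% and 3.99%. Without thinning every member of both libraries had a reporter UMI. In the wild type library 0 of 97 members had one, which allows a share of up to 3.09% of cells with a UMI. The reporter's level was 1847 CPM (exact Poisson interval 1675 to 2031) and 2689 CPM (2570.3 to 2811) in members and 821 and 1151 CPM in the other Epcam barcodes. The level was higher in members than in the rest in both libraries, a difference that was not tested.

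**Figure D5:**
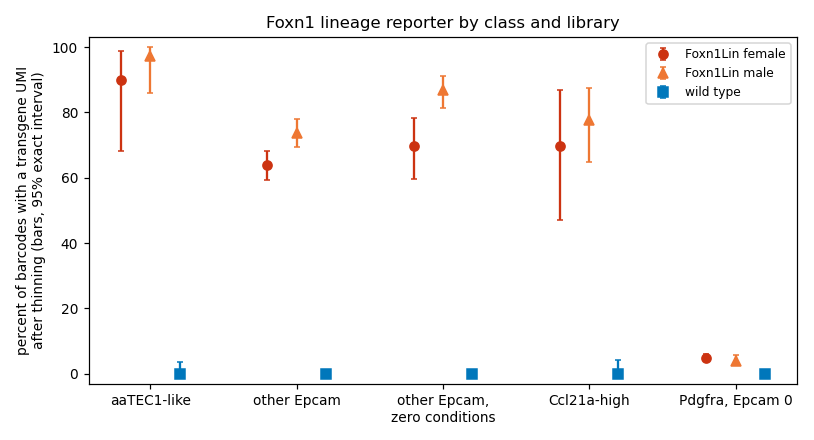
Percent of barcodes with at least 1 reporter UMI (any added transgene sequence) after thinning to 2000 UMIs, by class and library, with 95% exact intervals. Members stand at 90.0% and 97.3% in the lineage trace libraries and at 0 in the wild type library, and fibroblast barcodes at 4.90% and 3.99%.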

How the data were processed

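Cells were taken from 3 thymus libraries depleted of CD45-positive cells. The deposited values are raw counts of UMIs per gene and barcode, which the authors made with Cell Ranger (7.01 per the labels) on GRCm38 with transgene sequences added. Barcodes with more than 1000 genes and under 20% mitochondrial UMIs were kept. The members and gene lists were chosen with earlier results of these data known, and list tests were not run. Members and comparators were summed per library and fitted with edgeR 4.0.16 in R 4.3.3 (TMM scaling, filterByExpr, quasi-likelihood test, library as block, Benjamini-Hochberg adjustment). The pairing of both sums is by library. Named were the 14 highest and 14 lowest fold changes of the first comparison among genes with adjusted P under 0.05, the same direction in 3 libraries and at least 10 UMIs per library where higher, 5 each way in the other comparisons, and genes of the lists, of which some are counted but not reported by name. Genes of the rule, mitochondrial and sex-linked genes were left out. The members held 229582, 721546 and 2722052 UMIs. On simulated counts for the first comparison (14591 genes), 82.1% of 4-fold and 20.4% of 2-fold changes were recovered, with 0 false calls among 14398 unchanged genes. For the Ccl21a-high comparison (8216 genes) these were 96.7% and 26.6%, with 4 false calls among 8030. The counts were drawn from the comparator's levels with the same dispersion of 0.05 for every gene. They did not model genes held mostly by a few members, so these rates may not hold for the real counts. Doublets were not removed; Scrublet set no usable threshold, so an alternative dropped the highest scores (3.9%; 8 members). Intervals are exact, and the limit given for a count of 0 is 3 counts of the total. Sequences are from RefSeq on GRCm38.p6 and gene positions from GENCODE vM21.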

Additional observations from a re-analysis of the deposited data

How the results depend on the processing

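The number of genes that passed moved by over 1.5 times under the settings given here. Against all other Epcam barcodes, leaving out 1 library gave 681 to 1402 higher and 944 to 1907 lower genes. Against zero-matched barcodes it gave 225 to 666 higher and 178 to 577 lower, and against Ccl21a-high barcodes 442 to 1036 higher and 340 to 824 lower. The lowest value came without the wild type library in each case. Thinning to 3000 UMIs gave 584 higher and 872 lower in the first comparison, and members taken without the zero conditions gave 478 lower. Without the filter on low counts 1134 were lower against zero-matched and 1268 against Ccl21a-high barcodes, and DESeq2 gave 598 higher in the last.

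The samples are paired by library. Without that replicate block 888 were higher and 1491 lower in the first comparison, 232 and 240 against zero-matched and 603 and 454 against Ccl21a-high barcodes.

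Members with an Otog UMI alone, a choice made after seeing the data, gave 2026 higher and 3364 lower in the first comparison, of which 1175 and 1565 were shared with those over all members, and 1011 and 1118 against zero-matched barcodes. Members without one gave 279 and 458, then 154 and 157, and against Ccl21a-high barcodes 379 and 299. Single named genes changed direction in these cases. In members without Otog the log2 fold change of Ush1c was -0.44 against other Epcam and -0.49 against zero-matched barcodes and that of Isl1 -0.014 against zero-matched barcodes. Members taken without the condition on BC006965, Hpse2 and Otog gave 1.22 for Kl, 0.49 for Sprr2a3 and 0.35 for Krt15 against other Epcam barcodes and members without the zero conditions 0.56 for Ppy, none of them passing the test. In members with Otog the log2 fold change of Car8 was -2.85 and -2.40 and that of Msln -1.02 and -0.52 against other Epcam and zero-matched barcodes. The causes were not tested.

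The members' share without the zero conditions was 9.38%, 15.7% and 18.7%. Under a limit of 5 UMIs it was 5.24% in the Foxn1Lin male and 6.41% in the wild type library, and after thinning to 3000 UMIs 2.50% and 5.81%. Without thinning 100% of members had a reporter UMI in both lineage trace libraries, and 83.8% had at least 2 after thinning in the Foxn1Lin male one. With 20 members in 1 library and 1 library a group, small changes were detected only in part and differences between groups could not be tested.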

Other observations

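Another 163 barcodes (27, 35 and 101) met the positive conditions but had a UMI of Aire, Psmb11, Cd80, Pecam1 or Pdgfra, and entered the other Epcam barcodes. Otog stood at 432, 332 and 1043 CPM in them against 893, 1117 and 1335 CPM in members, and Cldn14 at 56.5, 60.1 and 117 CPM against 296, 255 and 251 CPM. Krt18, at 3476, 3101 and 2645 CPM, lay between members and the other Epcam barcodes in each library. Of these barcodes 2, 12 and 12 were among the highest doublet scores, against 1, 4 and 3 members, and the part of doublets in these levels was not tested.

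Of 7544 genes with at least 60 UMIs in the members, 42 were at least 2-fold higher and 110 at least 2-fold lower in both Foxn1Lin libraries than in wild type, with exact Poisson intervals, which cover counting error only, that did not overlap. In the other Epcam barcodes 1 of the 42 and 12 of the 110 differed by as much the same way. Each group is 1 library, so none of this was tested. Pglyrp1, a peptidoglycan-binding protein, had 85, 592 and 39 UMIs in members, yet 1, 2 and 6 members held them. Fabp5, a fatty acid carrier, had 555, 931 and 550 UMIs, of which 5 members of each library held 91.4%, 92.6% and 37.6%. Spink5, a protease inhibitor of cornified epithelium, had 8, 1 and 859 UMIs, with 95.9% of those in wild type held by 5 members. These genes were chosen after their values were seen.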
